A study of Mus musculus with 6 samples.

Results

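Polycomb repressive complex 2 (PRC2) was followed through the mRNA of 10 of its genes in CT26 cells, a mouse colon carcinoma line. The genes were chosen by name as core and accessory subunits: Ezh1, Ezh2, Eed, Suz12, Rbbp4, Rbbp7, Jarid2, Mtf2, Phf19 and Phf1. Each matched 1 row of the count table, so 10 of its 57010 identifiers are described here, and all 10 were among the 13442 genes abundant enough to test. RNA was sequenced from 3 libraries of cells with a guide against Cdk10 (sgCdk10), the gene of cyclin-dependent kinase 10, and from 3 libraries of cells with a control guide (sgControl). The labels name no treatment or time, and whether the cells were a clone or a pool is not given in the sources used here. Separate cultures are not stated for the replicate libraries, and the p-values therefore describe library-to-library spread, which may be technical.

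PRC2 places methyl groups on lysine 27 of histone H3, a mark of repressed genes. EZH2 or its paralog EZH1 is the catalytic subunit, EED and SUZ12 hold it in an active form, and the histone-binding proteins RBBP4 and RBBP7 complete the core. Accessory subunits divide the complex into a form with 1 of the Polycomb-like proteins PHF1, MTF2 and PHF19, called PRC2.1, and a form with JARID2 and AEBP2, called PRC2.2. EZH2 is known for its high level in dividing and tumour cells and its gene is a known target of E2F transcription factors, whereas EZH1 is known from resting and differentiated cells. PRC2 is also known to silence antigen presentation genes in some tumours.

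The sequences around the start of transcription are shown for the 3 subunit genes that changed and for Suz12, the other gene with a match to the E2F letters. They are RefSeq windows on GRCm38.p6, written on the strand of the gene, and capitals mark the E2F letters searched for. The windows are chr6:47594981-47595280 (minus strand) for Ezh2, chr2:34913927-34914226 (minus strand) for Phf19, chr11:79992856-79993155 (plus strand) for Suz12 and chr11:101226414-101226713 (minus strand) for Ezh1.
Ezh2: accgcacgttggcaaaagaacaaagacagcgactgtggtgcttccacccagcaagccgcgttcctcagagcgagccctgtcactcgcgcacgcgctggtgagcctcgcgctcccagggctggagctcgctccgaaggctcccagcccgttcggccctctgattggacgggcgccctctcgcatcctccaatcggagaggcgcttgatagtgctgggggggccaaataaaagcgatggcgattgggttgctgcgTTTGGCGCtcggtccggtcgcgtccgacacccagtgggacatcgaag
Phf19: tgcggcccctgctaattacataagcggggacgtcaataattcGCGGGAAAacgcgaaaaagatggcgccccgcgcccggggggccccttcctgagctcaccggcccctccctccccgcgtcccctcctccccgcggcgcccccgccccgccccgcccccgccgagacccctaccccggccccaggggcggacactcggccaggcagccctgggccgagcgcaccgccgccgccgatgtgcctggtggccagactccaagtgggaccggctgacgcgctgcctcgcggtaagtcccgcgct
Suz12: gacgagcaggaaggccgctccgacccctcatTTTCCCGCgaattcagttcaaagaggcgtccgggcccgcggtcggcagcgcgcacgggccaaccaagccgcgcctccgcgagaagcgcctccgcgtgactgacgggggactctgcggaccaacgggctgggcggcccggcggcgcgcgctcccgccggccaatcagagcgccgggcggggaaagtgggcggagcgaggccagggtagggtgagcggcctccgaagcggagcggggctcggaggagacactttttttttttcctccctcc
Ezh1: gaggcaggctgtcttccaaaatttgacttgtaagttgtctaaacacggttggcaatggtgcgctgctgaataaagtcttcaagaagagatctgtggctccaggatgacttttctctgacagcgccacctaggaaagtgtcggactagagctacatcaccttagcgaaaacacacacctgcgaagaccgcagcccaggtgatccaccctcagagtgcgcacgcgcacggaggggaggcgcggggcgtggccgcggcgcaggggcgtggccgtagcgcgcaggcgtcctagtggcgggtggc

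Each window runs from 250 bases before the start to the first 50 transcribed bases. The E2F letters searched for were TTTCCCGC, TTTGGCGC, TTTGCCGC and TTTCGCGC on either strand. They occurred in 2.26% of all 32851 promoter windows in the RefSeq table. That share was not matched for GC content, which was 64.3% in the window of Ezh2, 74.3% in Phf19 and 71% in Suz12. It therefore does not show whether the letters are more frequent in these genes than in windows of like composition. Ezh2 held TTTGGCGC from 3 to 10 bases after its start. Phf19 held the reverse complement of TTTCCCGC, at positions -208 to -201. Suz12 held TTTCCCGC itself at -219 to -212. The windows of the other 7 subunit genes, which include alternative starts of Jarid2 and Mtf2, held no such letters. Ezh2 also held 3 matches to CCAAT, which 37.4% of all windows hold at least once. The ETS letters CCGGAAGT, present in 3.89% of all windows, occurred in no window of the 10 genes. TTTGAA, the core of the cell-cycle element CHR, was found near Eed, Suz12 and the second start of Mtf2, and in 17.9% of all windows. A match describes the letters, and binding of a factor was not measured.

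**Figure D1:**
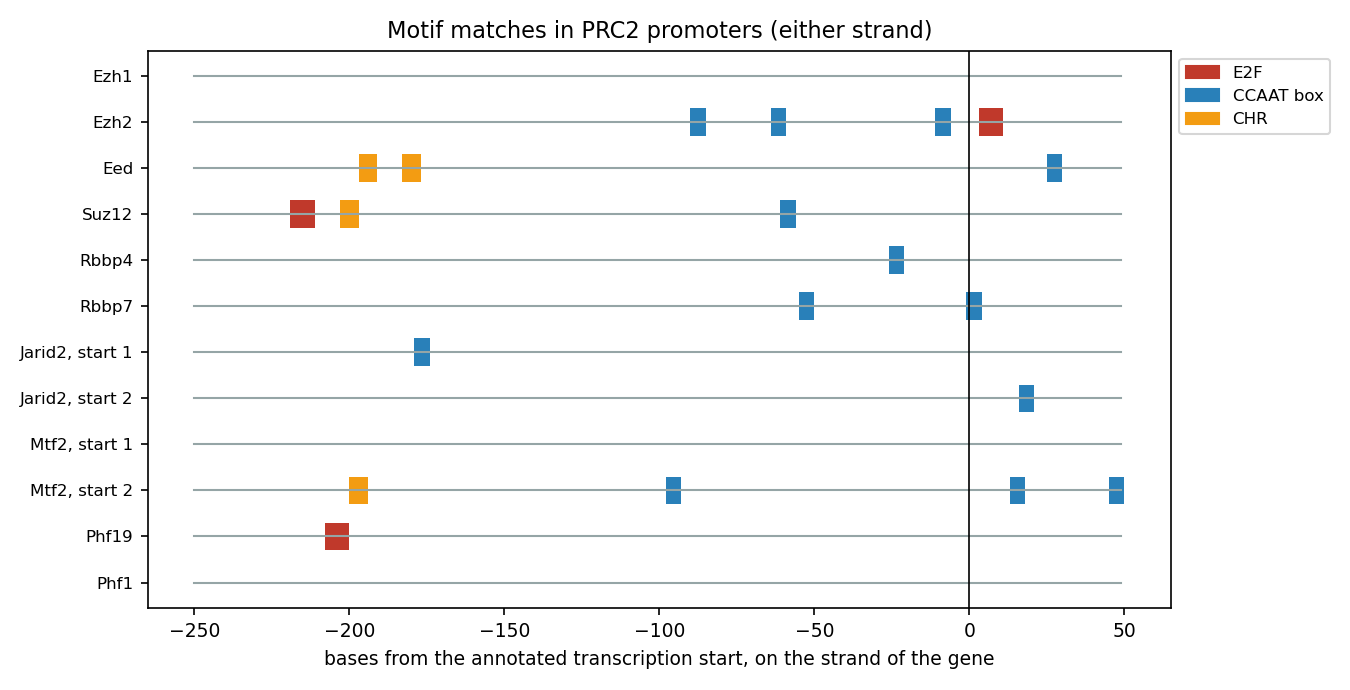
Positions of motif letters in the 12 promoter windows of the 10 PRC2 genes, in bases from the annotated start (vertical line) on the strand of the gene. E2F letters lie at 3 to 10 in Ezh2, -208 to -201 in Phf19 and -219 to -212 in Suz12, and CCAAT matches (blue) are spread over 8 of the windows.

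Total counts per library lay between 17532202 and 19258309, and 3 counts, taken as the floor of detection, corresponded to 0.156 to 0.171 CPM (counts scaled to a library total of 1000000, with library totals adjusted by TMM factors). The guide's own gene, Cdk10, had 204, 227 and 202 counts in the sgCdk10 libraries, against 381, 344 and 365 in the sgControl libraries, and its exons overlap those of neighbouring genes. In a principal component plot the groups parted along the first axis (53.3% of variance), while the second axis (16.5%) placed sgControl replicate 3 away from the other 5 libraries. Of 12 epithelial and colon markers, Epcam was at 0 in all libraries, Cdh1 had at most 1 count, and 4 were abundant enough to test. The epithelial markers summed to 59.3 to 60.2 CPM in sgCdk10 and 37.7 to 42.0 CPM in sgControl, led by Krt18 and Krt20 (log2 fold changes of 0.65 and 0.51, both called). Muc2 was at 0.437 CPM in sgCdk10 and 0.841 CPM in sgControl, a call lost with any 1 of 5 libraries left out, and Lgals4 was not called (-0.07). Of 17 leukocyte markers, 15 had at most 3 counts in every library and 6 were at 0 in all of them. The leukocyte sum was 12.9 to 14.0 CPM in sgCdk10 and 9.20 to 9.33 CPM in sgControl. Cd68, which is not restricted to leukocytes, held nearly all of it, with means of 13.0 CPM in sgCdk10 and 8.75 CPM in sgControl. Of 11 endothelial and fibroblast markers 5 had at most 3 counts in every library, Pecam1, Cdh5 and Kdr among them. Their sum was 1565 to 1586 CPM in sgCdk10 and 1362 to 1514 CPM in sgControl, most of it from the collagen gene Col1a2. Pdgfra (0.63), Col1a1 (0.27) and Col1a2 (0.10) rose, while Pdgfrb (0.10) was not called. Col1a2 was not called with offsets for GC content and length (0.004; edgeR adjusted p = 0.895), without sgControl replicate 3 (0.044; edgeR adjusted p = 0.0518) or without any 1 of the 3 sgCdk10 libraries, and Pdgfrb was called without sgControl replicate 2 (edgeR adjusted p = 0.0461). The endothelial marker Vwf was above the floor, at 0.691 CPM in sgCdk10 and 0.786 CPM in sgControl, and was not called. The leukocyte markers Ptprc and Cd3e were at or near 0, and the part of the epithelial, endothelial and fibroblast genes in the PRC2 results was not tested. In bulk RNA, fewer cells that express a gene and less of its RNA per cell cannot be told apart.

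Ezh2 was lower and Ezh1 higher in the cells with the Cdk10 guide, so the catalytic pair moved in opposite directions. Ezh2, the main catalytic subunit, had 88.4, 90.4 and 86.8 CPM in the sgCdk10 libraries, against 98.0, 99.8 and 101 CPM in the sgControl libraries. Every sgCdk10 library lay below every sgControl library, and the level fell by 11.1%. The log2 fold change (sgCdk10 over sgControl) was -0.17 (SE 0.03; 95% interval -0.24 to -0.10; edgeR adjusted p = 0.000304). Ezh1, the paralog with weaker catalytic activity, had 31.7, 34.4 and 34.2 CPM in sgCdk10, against 26.3, 29.2 and 30.5 CPM in sgControl. The groups did not overlap here either, and the gap was narrowest between sgCdk10 replicate 1 and sgControl replicate 3. Its log2 fold change was 0.22 (SE 0.06; 95% interval 0.10 to 0.35; edgeR adjusted p = 0.00362), or 16.7% higher. Ezh1 is on chromosome 11 from 101191115 to 101226463 on the minus strand of GRCm38, with 21 merged exons. Ezh2 is on chromosome 6 from 47530139 to 47595341, also on the minus strand with 21 merged exons, and 174 bases of its exons (2.61%) overlap the noncoding gene Gm26625 on the opposite strand.

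The balance within the pair shifted by more than the spread between libraries. The log2 ratio of Ezh2 to Ezh1, each per kilobase of merged exons, was 1.63, 1.55 and 1.5 in sgCdk10, against 2.06, 1.93 and 1.88 in sgControl. The means differed by -0.40, with no overlap (exact permutation test, two-sided, p = 0.1, the smallest that 3 against 3 libraries allow). Neither gene overlapped between the groups and they moved in opposite directions, so their ratio could not overlap. The ratio therefore restates the changes of the single genes and the p-value adds no support to them. On the linear scale Ezh2 made up 74.7% ± 0.901 of the summed level of the pair in sgCdk10 and 79.5% ± 1.00 in sgControl (SD, n = 3 each). Ezh2 was the more abundant mRNA of the pair in all 6 libraries.

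Of the 10 subunit genes, 1 rose and 2 fell. Of all 13442 genes tested 42.5% were called, 22.1% higher and 20.4% lower in sgCdk10, so 3 calls in 10 genes do not stand above the background. The groups did not overlap for 5 of the 10 (Ezh1, Ezh2, Phf19, Rbbp4 and Rbbp7), against 51.3% of all tested genes. The median absolute log2 fold change was 0.056 over the 10 and 0.159 over all tested genes, and 35.1% of tested genes had a larger change than Phf19, the subunit that changed most. Without sgControl replicate 3 all 3 calls were made again, at log2 fold changes of 0.27 for Ezh1, -0.16 for Ezh2 and -0.26 for Phf19, and Rbbp7 was called as well.

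**Figure D2:**
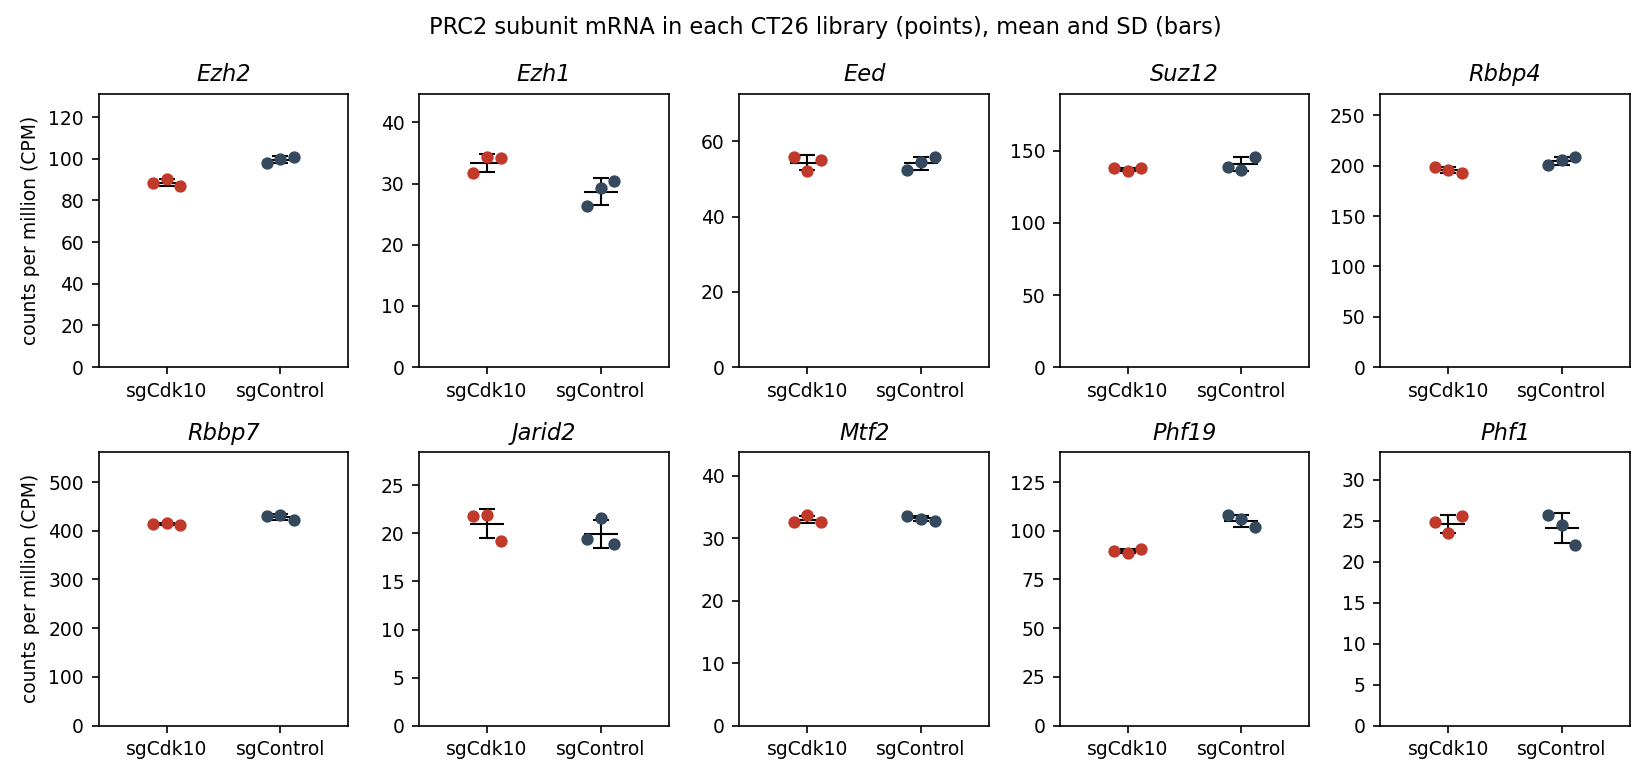
CPM of each PRC2 subunit gene in the 3 sgCdk10 (red) and 3 sgControl (blue) libraries, with mean and SD as bars and axes from 0. Ezh2 and Phf19 lie lower and Ezh1 higher in sgCdk10 with no overlap, while the other panels differ by at most 4.92% between the groups.

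The remaining core subunits differed little. Eed, the subunit that reads the methyl mark and stimulates the enzyme, had 55.9, 52.0 and 55.1 CPM in sgCdk10, against 52.3, 54.4 and 55.7 CPM in sgControl. The groups overlapped, and the log2 fold change was 0.01 (95% interval -0.09 to 0.10; edgeR adjusted p = 0.933). Suz12, the scaffold on which the accessory subunits dock, had 138, 136 and 138 CPM in sgCdk10, against 139, 137 and 146 CPM in sgControl. Here too the groups overlapped, with a log2 fold change of -0.04 (95% interval -0.11 to 0.03; edgeR adjusted p = 0.336). Neither interval reaches a fall as large as the estimate for Ezh2.

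Rbbp4 and Rbbp7, which also serve other chromatin complexes, were slightly lower without passing the threshold. Rbbp4 had 199, 196 and 193 CPM in sgCdk10, against 201, 206 and 209 CPM in sgControl, with no overlap. Its log2 fold change was -0.06 (SE 0.03; edgeR adjusted p = 0.0817). With offsets for GC content and length it was called at -0.10 (edgeR adjusted p = 0.00228). Rbbp7 had 414, 416 and 412 CPM in sgCdk10, against 430, 432 and 422 CPM in sgControl, again with no overlap. Its log2 fold change was -0.05 (SE 0.03; edgeR adjusted p = 0.156), and without sgControl replicate 3, which had the lowest sgControl value, it was called at -0.06 (edgeR adjusted p = 0.0166). A processed pseudogene of Rbbp7, Gm6382, is 97.1% identical over 942 bases, so reads may be divided between them. It had 5.43 CPM in sgCdk10 and 5.64 CPM in sgControl.

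Among the accessory subunits of PRC2.1, Phf19 fell and its paralogs were not called. Phf19, which recruits PRC2 through a domain that reads methylated lysine 36 of histone H3, had 89.6, 88.7 and 90.7 CPM in sgCdk10, against 108, 106 and 102 CPM in sgControl. All sgCdk10 libraries were lower, by 15% on the fitted scale. The log2 fold change was -0.23 (SE 0.03; 95% interval -0.31 to -0.16; edgeR adjusted p = 6.6e-06). No other gene's exons overlap those of Phf19, which is on chromosome 2 from 34893757 to 34914026 on the minus strand. Mtf2, the paralog best known from embryonic stem cells, had 32.6, 33.7 and 32.6 CPM in sgCdk10, against 33.6, 33.1 and 32.8 CPM in sgControl, with a log2 fold change of -0.01 (95% interval -0.11 to 0.10; edgeR adjusted p = 0.917). Phf1 had 24.9, 23.5 and 25.6 CPM in sgCdk10, against 25.7, 24.5 and 22.1 CPM in sgControl. Its groups overlapped and its log2 fold change was 0.03 (95% interval -0.10 to 0.16; edgeR adjusted p = 0.71). The exons of Cuta, on the opposite strand, overlap 39.3% of the merged exons of Phf1. The strand setting of the counting is not given in the sources used here, so the level of Phf1 is the least certain of the 10. Smaller overlaps on the opposite strand exist for Ezh2, Eed, Suz12, Rbbp4, Rbbp7 and Mtf2. The largest of these with any 1 gene is 9.1% of merged exons, for Rbbp4 with Gm26722. Mtf2 shares 6.93% with Tmed5, which had 75.2 CPM in sgCdk10 and 73.1 CPM in sgControl. Cuta itself was not called (-0.08; edgeR adjusted p = 0.118).

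The share of Phf19 among the Polycomb-like mRNAs was lower in sgCdk10. PHF1, MTF2 and PHF19 bind PRC2 at the same place and exclude each other. In the summed length-scaled level of the trio, Phf19 held 58.1% ± 0.119 in sgCdk10 and 62.2% ± 0.470 in sgControl. Phf1 held 23.1% ± 0.722 in sgCdk10 and 20.5% ± 0.862 in sgControl, and Mtf2 held 18.9% ± 0.603 in sgCdk10 and 17.3% ± 0.411 in sgControl (SD, n = 3 each). None of these shares overlapped between the groups (exact permutation p = 0.1 each, the smallest possible). The shares of a trio sum to 100%, so a loss in Phf19 alone raises the others. The exon overlaps of Phf1 with Cuta and of Mtf2 with Tmed5 may affect the shares, which was not tested.

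**Figure D3:**
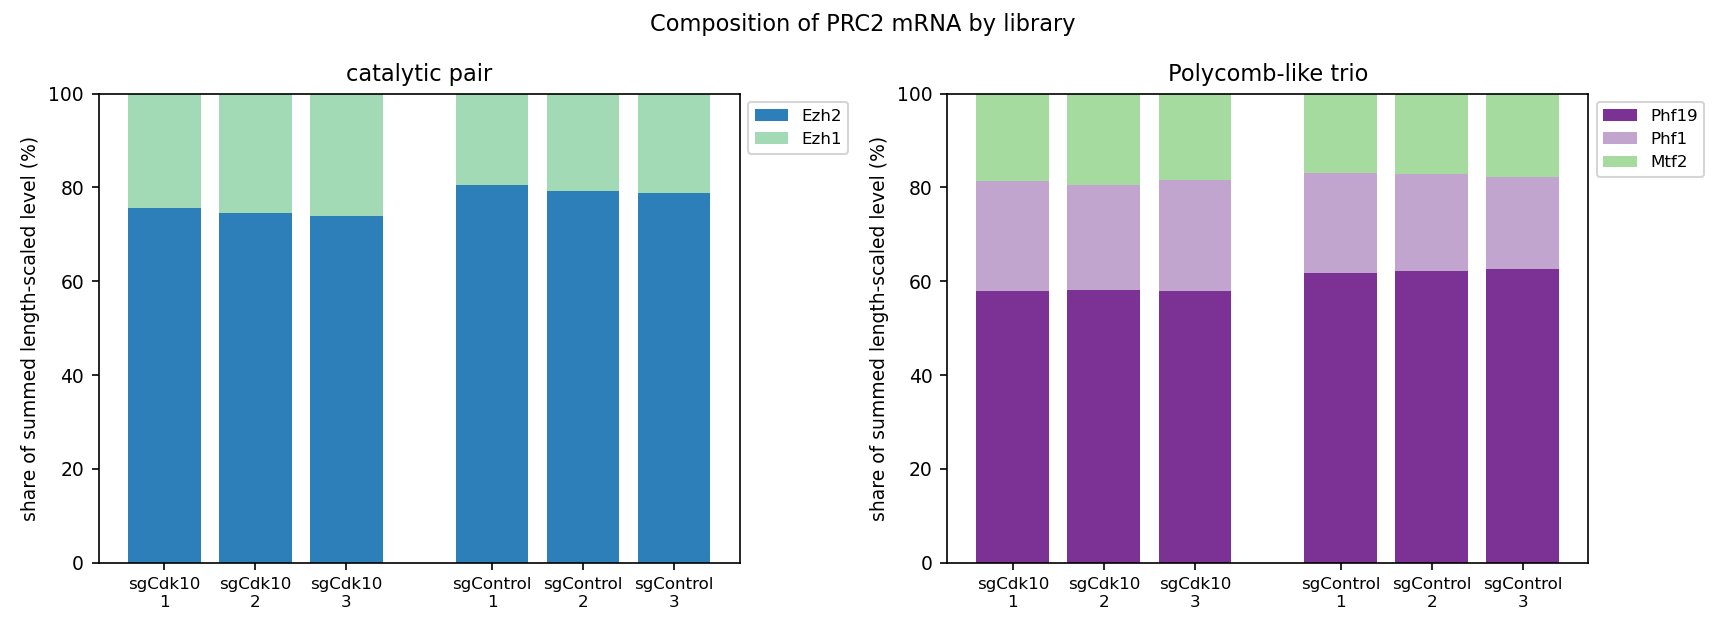
Share of each mRNA in the summed level per kilobase of merged exons, by library, for Ezh2 and Ezh1 (left) and for Phf19, Phf1 and Mtf2 (right). Ezh2 made up 73.9 to 75.6% of its pair in sgCdk10 and 78.7 to 80.6% in sgControl, and Phf19 57.9 to 58.2% of its trio in sgCdk10 and 61.7 to 62.6% in sgControl.

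Jarid2, the subunit of PRC2.2 that binds ubiquitinated nucleosomes, had 21.8, 21.9 and 19.2 CPM in sgCdk10, against 19.4, 21.6 and 18.9 CPM in sgControl. The groups overlapped, with a log2 fold change of 0.07 (95% interval -0.07 to 0.21; edgeR adjusted p = 0.453). Its partner Aebp2 was not called either (0.03; edgeR adjusted p = 0.517), at 74.2 ± 1.09 CPM in sgCdk10 and 72.5 ± 0.769 CPM in sgControl (SD, n = 3 each). The log2 ratio of the summed Polycomb-like trio to the sum of Jarid2 and Aebp2, per kilobase, was 1.66, 1.61 and 1.71 in sgCdk10, against 1.89, 1.84 and 1.79 in sgControl. The means differed by -0.18, again without overlap (exact permutation p = 0.1). Of the genes in this ratio only Phf19 was called, so its fall is counted here again. The exon overlaps of Phf1 and Mtf2 with other genes may affect the ratio as well. The ratio leaves out Lcor, the partner described next.

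Of the other known partners, Lcor rose and 2 genes were not detected. Lcor, whose locus also encodes the PRC2.1 subunit PALI1, had 58.5, 61.6 and 59.6 CPM in sgCdk10, against 50.5, 49.7 and 53.4 CPM in sgControl. The log2 fold change was 0.23 (SE 0.04; edgeR adjusted p = 0.000202). A count over the gene cannot separate PALI1 from the shorter product of the locus. Its paralog Lcorl was not called with all libraries (0.12; edgeR adjusted p = 0.118), but was at 0.18 without sgControl replicate 3 (edgeR adjusted p = 0.0048). Epop, a PRC2.1 subunit known from embryonic stem cells, and Ezhip, an inhibitor of EZH2 named AU022751 in the annotation, had 0 counts in all 6 libraries.

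**Figure D4:**
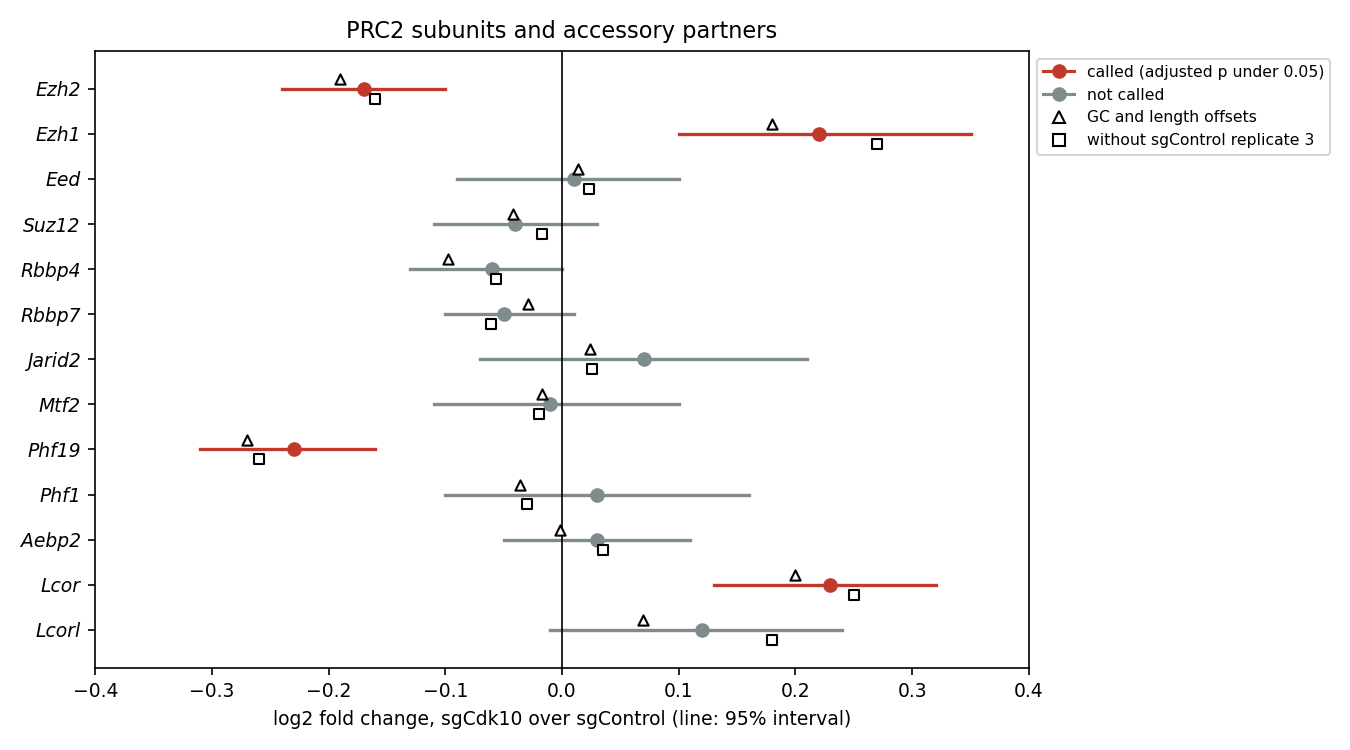
Log2 fold change (sgCdk10 over sgControl) of the PRC2 genes and partners with 95% intervals, red where called. The triangles (offsets for GC content and length) and squares (without sgControl replicate 3) stay on the same side of 0 for Ezh2, Ezh1, Phf19 and Lcor, and both lie across it for Phf1 (-0.036 and -0.030), as does the triangle for Aebp2 (-0.002).

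The subunits differed far more from each other in level than between the groups. Over all 6 libraries Rbbp7 was the most abundant, at a mean of 145 CPM per kilobase of merged exons (142 to 148). Suz12 (28.1), Rbbp4 (23.0) and Phf19 (19.4) followed, with no overlap between neighbours in this order. Eed (14.2) and Ezh2 (14.1) came next and overlapped. Below them were Phf1 (6.99), Mtf2 (5.80), Ezh1 (4.17) and Jarid2 (2.1), each apart from the next. For comparison, the median tested gene had 6.38 CPM per kilobase. The order depends on the length used: per kilobase of coding sequence Rbbp4 (158) stood above Suz12 (62.5), and Phf1 (13.6) overlapped Ezh1 (13.8).

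Most of the replication genes examined fell, as Ezh2 did. Of 24 genes of DNA replication known as E2F targets, 19 fell and 2 rose, with a median log2 fold change of -0.18 against -0.00 over all tested genes. That is 79.2% lower and 8.33% higher, against 20.4% and 22.1% of all tested genes. The number that rose was 0 by DESeq2 or without sgCdk10 replicate 1. It was 1 by limma-voom, with the replicate block, or without sgCdk10 replicate 3, sgControl replicate 1 or sgControl replicate 3. Tk1, thymidine kinase, fell by 0.51, Pole, the catalytic subunit of DNA polymerase epsilon, by 0.45, and Mcm6, part of the replicative helicase, by 0.31 on the log2 scale. Rrm2, a subunit of ribonucleotide reductase, fell by 0.24. Set against the geometric mean of these 24 genes in the same library, Ezh2 stood at -0.51, -0.46 and -0.55 on the log2 scale in sgCdk10, against -0.53, -0.51 and -0.46 in sgControl. The means were -0.51 in sgCdk10 and -0.50 in sgControl, and the groups overlapped (exact permutation p = 0.9). With so few libraries, that p-value does not show that Ezh2 moves together with these genes. The same measure for Phf19 was -0.49, -0.48 and -0.48 in sgCdk10, against -0.40, -0.42 and -0.45 in sgControl, so Phf19 was lower relative to these genes too (exact permutation p = 0.1, the smallest possible). Relative to these genes, Suz12 was higher in sgCdk10 by 0.13, Eed by 0.17 and Ezh1 by 0.39, each without overlap (exact permutation p = 0.1 each). Because most of the 24 genes fell, a gene that did not change comes out higher on this measure. In their own levels Suz12 (-0.04) and Eed (0.01) overlapped between the groups and were not called. The relative values therefore show no rise of Suz12 or Eed. This measure was chosen after the values had been seen. Cell-cycle phases were not measured, and their part in the change of Ezh2 was not tested.

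The E2F family itself moved in both directions. Of 13 E2F, DP and pocket protein genes 4 rose and 3 fell, with a median of 0.04. That is 30.8% higher and 23.1% lower, against 22.1% and 20.4% of all tested genes. E2f7, a repressor of E2F targets that is itself such a target, fell by 0.27 (SE 0.04; edgeR adjusted p = 9.9e-07), and Tfdp2, a dimerization partner, fell by 0.23. The activators E2f1 and E2f3 rose by 0.19 and 0.18 on the log2 scale. With DESeq2 the count of those that rose was 2, and 2191 of all genes were called higher, against 2970 by edgeR.

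Among 4 enzymes that oppose PRC2 on the same lysine, 3 rose and 1 fell, with a median of 0.12. That is 75% higher and 25% lower, against 22.1% and 20.4% of all tested genes. Kdm6b, the demethylase JMJD3 that removes the PRC2 mark, had 47.9 ± 2.70 CPM in sgCdk10 and 24.4 ± 0.746 CPM in sgControl (SD, n = 3 each). Its log2 fold change was 0.97 (SE 0.05; edgeR adjusted p = 4.5e-13). Its paralog Kdm6a fell by 0.17 (edgeR adjusted p = 0.0213). DESeq2 did not call it (adjusted p = 0.0945), nor did edgeR without sgCdk10 replicate 2 or without sgControl replicate 2. The acetyltransferases Ep300 and Crebbp, whose acetyl mark on the same lysine excludes methylation, rose by 0.12 each. Neither was called with offsets for GC content and length (adjusted p = 0.103 for Ep300 and 0.319 for Crebbp), which left 1 of the 3 rises in this list. Crebbp was also not called by DESeq2 or without any 1 of 4 libraries, sgControl replicate 3 among them.

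Methyltransferases of lysine 36 and lysine 4, whose marks counteract PRC2, changed in both directions. Of all tested genes 22.1% were called higher and 20.4% lower. Of 5 lysine 36 enzymes 3 rose and 1 fell (60% and 20%), with a median of 0.14. Nsd3 rose by 0.19, Ash1l by 0.14 and Nsd1 by 0.56, the last at 5.05 ± 0.724 CPM in sgCdk10 and 3.42 ± 0.226 CPM in sgControl (SD, n = 3 each). Nsd2 fell by 0.08 (edgeR adjusted p = 0.0329), which DESeq2 did not call, nor the fit without filter or without sgCdk10 replicate 1, sgCdk10 replicate 3 or sgControl replicate 2. With offsets for GC content and length, 3 of these enzymes rose and 2 fell. Of 11 genes of the lysine 4 complexes 6 rose and 3 fell (54.5% and 27.3%), with a median of 0.09. Kmt2d rose by 0.43 (SE 0.03; edgeR adjusted p = 2.1e-11), Kmt2a by 0.24 and the MLL partner Men1 by 0.24, while Ash2l, a core subunit, fell by 0.20. With offsets for GC content and length 3 rose and 4 fell, so the balance of calls turned. With those offsets 2841 of all genes were called higher and 3117 lower, against 2970 and 2747 without them. By DESeq2, or without sgCdk10 replicate 1 or 3, 1 gene fell.

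Polycomb repressive complex 1, which ubiquitinates histone H2A and binds the PRC2 mark, had 8 rises and 2 falls among 23 tested genes, with a median of 0.08. That is 34.8% higher and 8.7% lower, against 22.1% and 20.4% of all tested genes. Bcorl1, a corepressor of a variant PRC1, had 22.4 ± 1.25 CPM in sgCdk10 and 11.9 ± 0.586 CPM in sgControl (SD, n = 3 each), a rise of 0.91 in log2 units (SE 0.07; edgeR adjusted p = 2.5e-10). Rybp rose by 0.27, Pcgf3 by 0.23 and Phc3 by 0.22. Ring1, a catalytic subunit, fell by 0.43, and was named after its values were seen. Without sgControl replicate 3 there were 4 falls, and 3033 of all genes were called lower, against 2747 with all libraries. Of 9 genes of the H2A deubiquitinase complex and its partners 4 rose and 3 fell (44.4% and 33.3%), with a median of 0.01. Mbd6 fell by 0.33, and Mbd5, Ogt and Foxk1 rose by 0.40, 0.17 and 0.14, the last not called with offsets for GC content and length (adjusted p = 0.15).

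Complexes that share RBBP4 and RBBP7 with PRC2 also changed in part. Of 23 genes of NuRD, SIN3 and CAF-1, 9 rose and 3 fell, with a median of 0.06. That is 39.1% higher and 13% lower, against 22.1% and 20.4% of all tested genes. Chd4, the remodelling ATPase of NuRD, rose by 0.27 (SE 0.03; edgeR adjusted p = 1.3e-08). The SIN3 subunits Sap30 and Ing1 rose by 0.52 and 0.28, and Chaf1b, of the replication-coupled chaperone CAF-1, fell by 0.30. The falls numbered 5 without sgControl replicate 3 and 7 with offsets for GC content and length. Over all genes these settings called 3033 and 3117 lower, against 2747.

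**Figure D5:**
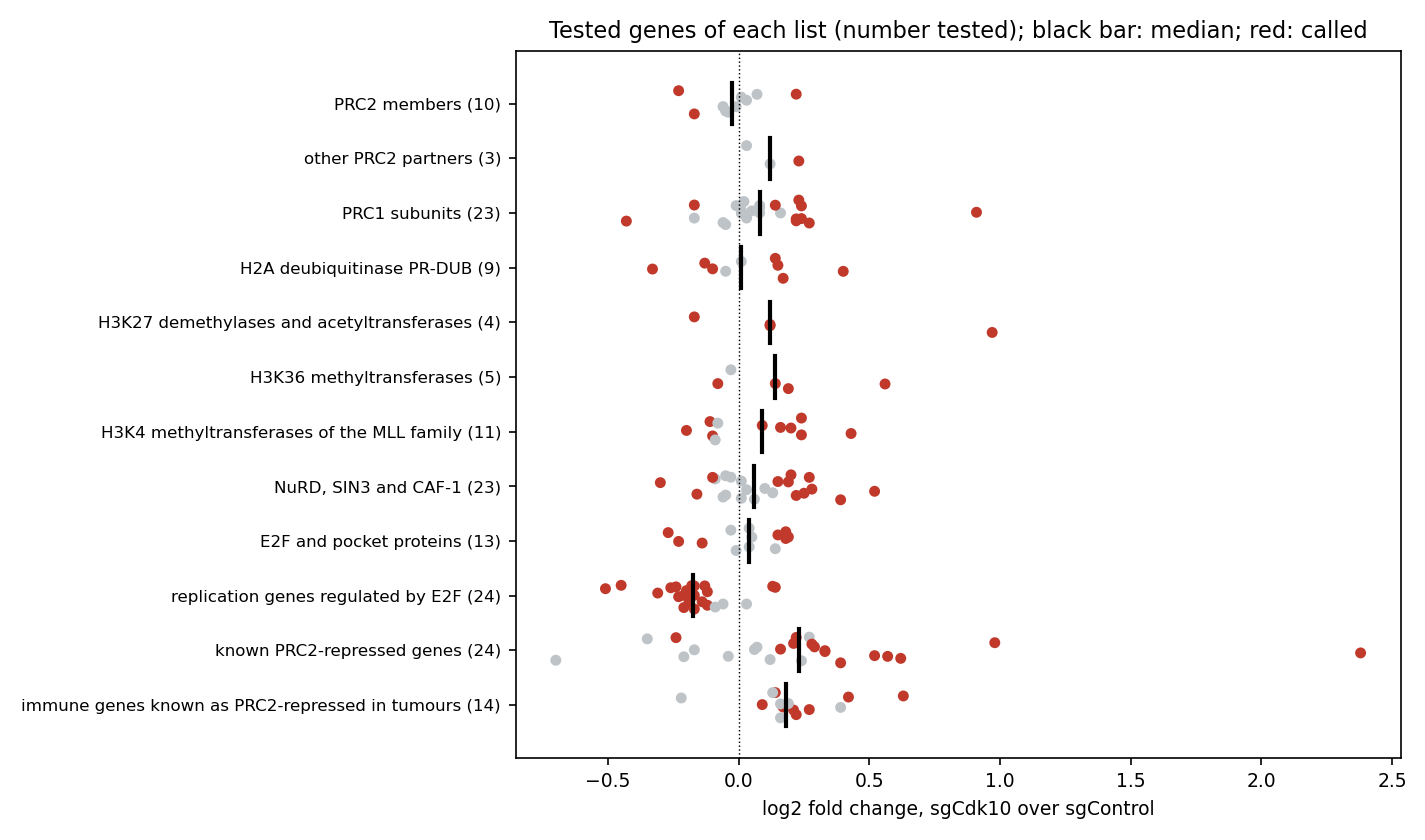
Log2 fold change (sgCdk10 over sgControl) of each tested gene in the lists, red where called, with the median of each list as a black bar. The PRC2 genes lie between -0.23 and 0.22 around a median of -0.02, the replication genes around -0.18, and the known PRC2-repressed genes around 0.23.

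Many genes known from other work as PRC2-repressed were at or near 0, and most of those called were higher in sgCdk10. Of 50 such genes, 24 had at most 3 counts in every library and 18 of these were at 0 throughout. Cdkn2a and Cdkn2b, the cell-cycle inhibitors best known as PRC2 targets, were among those at 0. A count of 0 does not separate repression of a gene from loss of its locus, and neither was tested. A total of 24 passed the filter on low counts, so only genes already expressed were tested. Of these 13 rose and 1 fell, with a median log2 fold change of 0.23. That is 54.2% higher and 4.17% lower, against 22.1% and 20.4% of all tested genes. Cdkn1a, the inhibitor p21, had 195 ± 3.06 CPM in sgCdk10 and 136 ± 7.83 CPM in sgControl. Bmp2, a secreted growth factor, had 5.47 ± 0.456 CPM in sgCdk10 and 1.05 ± 0.143 CPM in sgControl, a rise of 2.38 in log2 units (SE 0.18; edgeR adjusted p = 1.4e-10). The homeobox gene Dlx1 had 7.79 ± 1.06 CPM in sgCdk10 and 3.94 ± 0.236 CPM in sgControl (SD, n = 3 each). Igf2bp2, an RNA-binding protein gene, rose by 0.33 on the log2 scale. Pax6 was the gene that fell, by 0.24, and was named after its values were seen. The rises numbered 9 by DESeq2 or without sgCdk10 replicate 1, the fewest in any alternative. Those settings called 2191 and 2537 of all genes higher. Without sgCdk10 replicate 3 or sgControl replicate 1 there were 2 falls. The histone mark on these genes was not measured here.

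Of 16 immune genes known as PRC2-repressed in tumours 14 were tested, of which 8 rose and 0 fell, with a median of 0.18. The rises are 57.1% of those tested. Of all tested genes 22.1% were called higher and 20.4% lower. At an unadjusted p under 0.05 the number that fell was also 0, and 5 rose by DESeq2. DESeq2 called 2191 of all genes higher, against 2970 by edgeR. Tmem173, the gene of STING, rose by 0.42, B2m, which encodes beta-2 microglobulin, by 0.22, the loading factor Tapbp by 0.17 and the class I gene H2-D1 by 0.14 on the log2 scale. Nlrc5, the activator of class I genes, was not called (0.19; edgeR adjusted p = 0.237), and Cxcl9 was at 0 in all libraries. Both were named after their values were seen.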

How the data were processed

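The authors deposited raw, unscaled read counts per gene for 6 libraries in 1 table. Per the submitters' processing notes, the tools were HISAT2 2.2.1 and featureCounts 2.0.3 on mm10, with DESeq2 1.40.2. Annotation release and strand setting: not given in the sources used here. Symbols, coordinates and lengths came from GENCODE M21 (GRCm38), which named 52081 of 57010 identifiers; Ezhip was matched through a RefSeq synonym. The unnamed ones took up to 0.236% of a library.

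Genes were kept by filterByExpr (minimum count 10, minimum total 15), scaled by TMM and fitted in edgeR 4.0.16 (quasi-likelihood, robust), group as the only term and Benjamini-Hochberg adjustment over all 13442 genes at 0.05. SE and 95% intervals were derived from the F statistic. Levels per kilobase used merged exon length. Composition was compared by exact permutation over libraries. The fits and the permutation step were tested on simulated counts. Promoter windows were searched as RefSeq gives them, and near-identical copies with BLAST (at least 95% identity over 200 bases).

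The PRC2 genes and the lists were chosen with earlier results of these data known. All 10 PRC2 genes and their other partners were named, with Cdk10 and the 4 smallest p-values of each other list. Alternatives were DESeq2-type size factors, DESeq2 1.42.0, limma-voom (limma 3.58.1), no filter, a minimum of 1 CPM throughout a group, dispersions estimated without robustness, the replicate block, loess offsets (span 0.5) for GC content and length, each library left out, and for composition other lengths. The floor of 3 counts covers counting error only.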

Additional observations from a re-analysis of the deposited data

How the results depend on the processing

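The calls of Ezh1, Ezh2 and Phf19 held in all 14 alternatives, with log2 fold changes of 0.16 to 0.27, -0.19 to -0.16 and -0.27 to -0.22. The composition differences kept their direction; without 1 library the Ezh2 to Ezh1 difference was -0.43 to -0.35. Genes called numbered 4179 (DESeq2) to 6056 (without sgControl replicate 3) against 5717. Those called higher numbered 2191 (DESeq2) to 3023 (without sgControl replicate 3) against 2970. Those called lower numbered 1988 (DESeq2) to 3117 (GC content and length offsets) against 2747. The counts within each list are to be read beside these totals.

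Directions turned only for uncalled genes. Without 1 library, Eed ranged from -0.019 to 0.037, Mtf2 from -0.023 to 0.001, Phf1 from -0.030 to 0.082 and Lgals4 from -0.40 to 0.14. With GC content and length offsets Phf1 was -0.036 and Aebp2 -0.002; the cause was not tested. With those offsets, and without sgControl replicate 3, 3 subunits were called lower in place of 2.

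Same-numbered libraries did not deviate together (r of 0.025, -0.057 and -0.096), and the labels do not say that a number marks a shared batch. With the replicate block 5481 genes were called, and 1 PRC2 gene higher and 2 lower, as without it. With it 1 replication gene rose in place of 2. The alternative with RefSeq protein lengths was not run, as no protein table was used here; coding length, chosen after seeing the data, took its place. With 3 libraries a group, an exact test over libraries cannot go below 0.1.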
